A study of Mus musculus with 12 samples.

Results

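A set of 8 genes that mark the cells lining the brain ventricles were followed through a ribosome-capture experiment on mouse hypothalamus and midbrain. They were taken by symbol, and all 8 were found among the 32531 gene rows of each count table. Foxj1, Ccdc153 and Dnali1 mark ependymal cells, Rax, Dio2 and Crym mark tanycytes, and Ttr and Cp mark choroid plexus. The study used translating ribosome affinity purification with RNA sequencing (TRAP-seq) in adult mice of the JX883 transgenic line, which carries an Slc17a6-driven fusion of EGFP with the ribosomal protein Rpl10a. Slc17a6, which encodes VGLUT2, is the vesicular transporter gene of many subcortical glutamate neurons. The 4 groups were the immunopurified ribosome-bound RNA (IP) of the hypothalamus, the hypothalamus input, the midbrain IP and the midbrain input, with 3 libraries each. Every mouse in all 4 groups carried the transgene, and the samples analysed here held no IP from untagged mice. The sources used here do not say whether a library was made from 1 animal or from several, so p-values measure the spread between these libraries, which may be technical.

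Ependymal cells form the ciliated wall of the ventricles, and their beating cilia move cerebrospinal fluid. Tanycytes are elongated cells of the floor and lower walls of the third ventricle, within the hypothalamus, where they take up thyroid hormone and convert it to its active form. The choroid plexus hangs into the ventricles as a secretory epithelium, makes most of the cerebrospinal fluid and releases transthyretin into it in large amounts. None of these cells is a glutamatergic neuron. Some of the marker genes are also active elsewhere: astrocytes express Dio2 and Cp, and some neurons express Crym.

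The libraries held 41909019 to 55148109 counts assigned to genes. Levels are given as CPM, counts scaled to library size by the trimmed mean of M values (TMM), and a count of 3 in 1 library, used as the floor, stood for 0.0537 to 0.0709 CPM. Slc17a6, the gene that drives the tag, ranged over 1121 to 3488 CPM among hypothalamus IPs against 218 to 518 CPM among their inputs, and over 1864 to 3954 CPM among midbrain IPs against 501 to 1236 CPM among theirs. On the log2 scale it was higher by 2.60 in the hypothalamus (adjusted p = 0.00184) and by 1.82 in the midbrain (adjusted p = 0.0116). All adjusted p-values come from edgeR's quasi-likelihood F test, adjusted by Benjamini and Hochberg's method over the 18128 genes that passed a filter on low counts, with 0.05 as the threshold. Of all counts tallied, summary rows included, those not uniquely aligned made up 37.3% to 48.6% in IPs and 23.7% to 30.04% in inputs. Those ambiguous between genes made up 1.37% to 2.00% in IPs and 4.03% to 16.2% in inputs. Their part in the differences between IP and input was not tested. A pair of input libraries stood apart. Midbrain input replicate 3 held 888 CPM of Ttr, against at most 7.20 CPM in the other midbrain inputs. Hypothalamus input replicate 2 held 994 CPM of prolactin (Prl) and 567 CPM of growth hormone (Gh), which are pituitary transcripts, against at most 21.5 and 9.28 CPM in the other hypothalamus inputs. Calls were also made without both libraries of either replicate, which lowered them over all genes: 11.39% fell and 7.227% rose in the hypothalamus IP without hypothalamus replicate 2, and 12.16% fell and 7.88% rose in the midbrain IP without midbrain replicate 3.

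Most of the 8 genes were depleted from the IPs. In the hypothalamus 7 of the 8 genes fell in the IP relative to the input and none rose, where 19.6% of all genes tested fell and 14.2% rose. In the midbrain 5 of the 8 fell and none rose, where 19.9% of all genes tested fell and 14% rose. No gene of the set was higher at an unadjusted p under 0.05 either. The median log2 fold change of the 8 was −4.51 in the hypothalamus and −2.80 in the midbrain, against −0.08 and −0.05 for all genes tested. Without Rax, which was under the floor in both midbrain groups, the midbrain median over 7 genes was −2.76. All 8 passed the filter on low counts. In whole tissue, fewer cells of a type and less RNA per cell cannot be told apart.

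**Figure D1:**
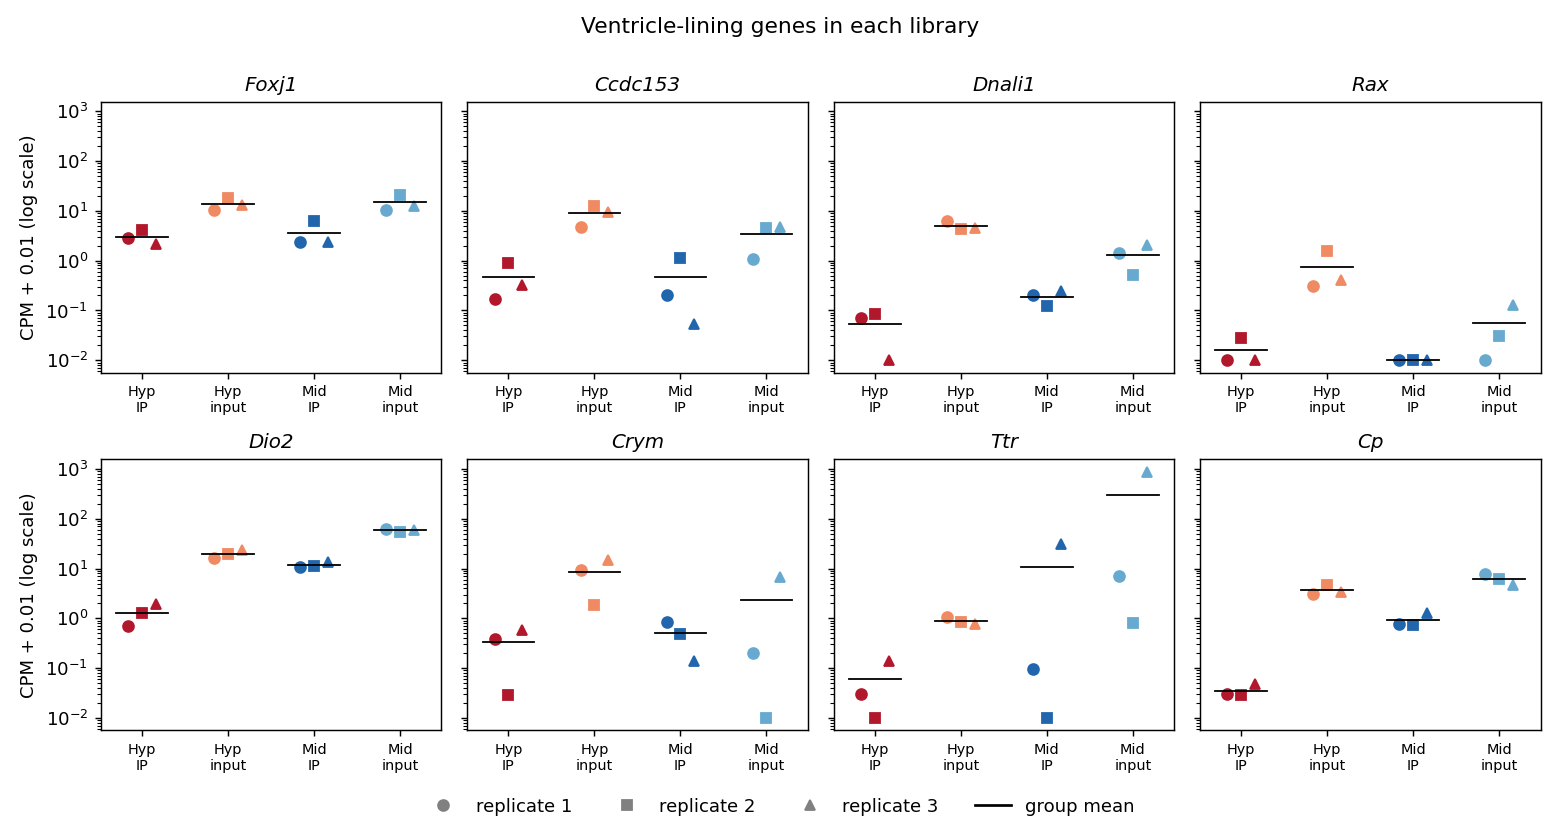
Level of each gene in each library, as CPM + 0.01 on a log axis, for the hypothalamus (Hyp) IP and input and the midbrain (Mid) IP and input. Symbols mark replicates 1 to 3 and horizontal lines the group means. Cp in the hypothalamus IP sits at 0.0184 to 0.0375 CPM, and Ttr in midbrain replicate 3 sits far above the other libraries in both fractions.

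Foxj1, the forkhead factor that switches on the motile cilia programme, had 140, 224 and 116 counts in hypothalamus IPs 1 to 3, against 493, 992 and 637 in the inputs. The means were 3.03 ± 0.988 CPM for IPs and 13.7 ± 3.76 CPM for inputs (SD, n = 3 each). All IP libraries lay below all input libraries, and Foxj1 fell by 2.17 log2 units (SE 0.44, adjusted p = 0.00297). In the midbrain it averaged 3.62 ± 2.23 CPM across IPs and 14.8 ± 5.75 CPM across inputs (SD, n = 3 each), again without overlap, and fell by 2.03 (SE 0.44, adjusted p = 0.00432). In the hypothalamus it kept the largest share of its input level among the 8 genes, as a ratio of group means. The gene lies on chromosome 11 at 116330704 to 116335399 of mm10, on the minus strand (ENSMUSG00000034227.7).

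Ccdc153, a coiled-coil gene used as a marker of ciliated ependymal cells, had 8, 48 and 17 counts in hypothalamus IPs, against 225, 695 and 474 in inputs. This gave 0.454 ± 0.379 CPM for IPs and 8.90 ± 3.89 CPM for inputs (SD, n = 3 each). The groups did not overlap, and it fell by 4.28 (SE 1.01, adjusted p = 0.00661). In the midbrain it had 9, 59 and 2 counts in IPs, against 56, 214 and 202 in inputs. There the highest IP library, replicate 2, exceeded the lowest input library, replicate 1. The midbrain fall of 2.89 (SE 0.96, adjusted p = 0.035) did not pass without IP replicate 1 (adjusted p = 0.104), input replicate 2 (0.0840), IP replicate 3 (0.0788) or input replicate 3 (0.0923), nor without both replicate 3 libraries (−2.05, adjusted p = 0.173). It lies on chromosome 9 at 44240676 to 44247306, plus strand (ENSMUSG00000070306.3).

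Dnali1, an axonemal dynein light intermediate chain of motile cilia, had 3, 4 and 0 counts in hypothalamus IPs, against 300, 246 and 223 in inputs. Only replicate 2 of the IP exceeded 3 counts, while every input library was far above that floor. It averaged 0.0446 ± 0.0392 CPM over IPs and 5.07 ± 1.08 CPM over inputs (SD, n = 3 each), and fell by 6.75 (SE 0.88, adjusted p = 0.00016). In the midbrain it had 9, 6 and 11 counts in IPs, against 73, 24 and 86 in inputs. These groups did not overlap either, and the fall was 2.85 (SE 0.72, adjusted p = 0.00978). Without both midbrain replicate 3 libraries the log2 fold change was −2.62 and did not pass (adjusted p = 0.0609). The gene lies on chromosome 4 at 125055338 to 125065703, minus strand (ENSMUSG00000042707.6), and shares 43 bases with Gnl2 on the other strand.

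Motile cilia genes are controlled by RFX factors, which bind X-box sites, together with Foxj1. RefSeq promoter sequences (GRCm38.p6, the mm10 assembly) were searched for 4 of the 8 genes: Ccdc153, Dnali1, Dio2 and Cp. The promoters of Foxj1, Rax, Crym and Ttr were not searched. The 250 bases before the start site were searched on both strands for GTTGCC, the X-box half-site, and TAAACA, a forkhead core. All 4 genes fell in both IPs, and the midbrain falls of Ccdc153 and Dnali1 did not pass without both replicate 3 libraries. The 2 ciliary promoters are shown because both motifs belong to regulators of motile cilia genes. They are Ccdc153 at chr9:44240427-44240676 on the plus strand and Dnali1 at chr4:125065658-125065907 on the minus strand, with capitals for the half-site.
Ccdc153: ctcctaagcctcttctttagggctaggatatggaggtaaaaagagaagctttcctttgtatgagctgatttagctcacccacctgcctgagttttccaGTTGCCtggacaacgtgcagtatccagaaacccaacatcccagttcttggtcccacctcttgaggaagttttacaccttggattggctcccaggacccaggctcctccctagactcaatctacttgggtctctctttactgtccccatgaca
Dnali1: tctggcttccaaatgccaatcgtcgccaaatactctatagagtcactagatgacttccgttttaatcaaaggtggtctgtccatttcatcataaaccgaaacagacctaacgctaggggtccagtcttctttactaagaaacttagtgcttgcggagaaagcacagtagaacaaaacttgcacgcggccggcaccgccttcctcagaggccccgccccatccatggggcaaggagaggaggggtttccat
Ccdc153 held GTTGCC with its first base 152 bases before the start site, and the windows of Dnali1, Dio2 and Cp held neither motif. Of 32851 promoter windows of the same length, 10.43% held GTTGCC or its reverse complement and 12.03% held TAAACA or its reverse complement. These matches describe letters and not bound sites.

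Rax, a homeodomain factor of tanycytes and their precursors, was the rarest of the 8. It had 0, 1 and 0 counts in hypothalamus IPs, against 14, 86 and 20 in inputs, so 1 count stood against 120. The IPs were 123.5-fold lower by this ratio, with an exact 95% interval of 21.74 to 4917 that covers counting error only. The groups did not overlap and Rax passed the test (adjusted p = 0.0133). Without input replicate 2, which held 86 of the 120 counts, it did not pass (adjusted p = 0.0581), nor without both hypothalamus replicate 2 libraries (adjusted p = 0.0908). That input also held more than double the level of both other inputs for 6 of 7 pituitary genes and 6 of 10 meningeal fibroblast genes, whose part in the Rax value was not tested. The share of all genes at that level was not computed. The gene lies on chromosome 18 at 65928277 to 65939787, minus strand (ENSMUSG00000024518.4). In the midbrain Rax had no count in any IP library and 0, 1 and 5 counts in the input, too few for a fold change.

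Dio2 encodes the type 2 deiodinase, which converts thyroxine to the active hormone. It had 34, 68 and 103 counts in hypothalamus IPs, against 777, 1115 and 1169 in inputs. The means were 1.29 ± 0.623 CPM for IPs and 19.9 ± 3.59 CPM for inputs (SD, n = 3 each), and it fell by 3.95 (SE 0.32, adjusted p = 6.50e-06). In the midbrain it averaged 11.9 ± 1.48 CPM over IPs and 59.0 ± 4.81 CPM over inputs (SD, n = 3 each), and fell by 2.31 (SE 0.29, adjusted p = 0.000137). Neither region's groups overlapped. The gene is on chromosome 12 at 90724552 to 90738438, minus strand (ENSMUSG00000007682.6). Dio2 had the smallest spread of the 8 relative to its level in the midbrain input, where Rax, its fellow tanycyte marker, had at most 5 counts.

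Crym encodes mu-crystallin, a cytosolic protein that binds thyroid hormone. It had 19, 1 and 30 counts in hypothalamus IPs, against 436, 101 and 743 in inputs. The groups did not overlap, although input replicate 2 was far below the other inputs. The fall of 4.74 (SE 1.67, adjusted p = 0.0448) did not pass on leaving out any 1 of IP replicates 1 to 3 or input replicates 1 and 3 (adjusted p = 0.0740 to 0.116), nor without both replicate 2 libraries (0.113). In the midbrain Crym had 40, 25 and 6 counts in IPs, against 10, 0 and 284 in inputs. Replicates 1 and 2 were higher in the IP and replicate 3 was higher in the input. The fitted log2 fold change was −2.23 (SE 1.52, adjusted p = 0.283) and became 2.73 (adjusted p = 0.210) without both replicate 3 libraries. With a term for each region and number it was 0.68 (adjusted p = 0.773). Crym is on chromosome 7 at 120186380 to 120202111, minus strand (ENSMUSG00000030905.5).

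Ttr encodes transthyretin, the thyroid hormone carrier of cerebrospinal fluid. It had 1, 0 and 7 counts in hypothalamus IPs, against 49, 47 and 38 in inputs. The groups did not overlap, but the fall did not pass the test (log2 fold change −4.05, SE 3.45, adjusted p = 0.402). With a term for each region and number it passed (−4.05, adjusted p = 0.000197). It also passed in a fit of the 6 hypothalamus libraries alone (adjusted p = 0.0332) and in a fit without both midbrain replicate 3 libraries (adjusted p = 0.0339). In the midbrain Ttr had 4, 0 and 1486 counts in IPs, against 375, 38 and 37546 in inputs. Every same-numbered IP was below its input, while replicate 3 of the IP was above inputs 1 and 2. The log2 fold change was −4.83 (SE 2.33, adjusted p = 0.134), and −5.12 (adjusted p = 2.01e-06) with a term for each region and number. Without both replicate 3 libraries it was −6.51 (adjusted p = 0.0244). The gene is on chromosome 18 at 20665280 to 20674321, plus strand (ENSMUSG00000061808.4).

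Cp encodes ceruloplasmin, a copper-carrying ferroxidase that oxidises iron as it leaves cells. It had 1, 1 and 2 counts in hypothalamus IPs, against 147, 266 and 171 in inputs, so that every IP library lay below the floor of 3 counts. Cp fell by 7.08 (SE 0.55, adjusted p = 5.47e-06), the largest fall of the 8 in the hypothalamus. In the midbrain it averaged 0.908 ± 0.296 CPM over IPs and 6.14 ± 1.61 CPM over inputs (SD, n = 3 each), without overlap, and fell by 2.76 (SE 0.41, adjusted p = 0.000395). The gene lies on chromosome 3 at 19957054 to 20009145 of mm10 on the plus strand (ENSMUSG00000003617.16) and shares 13201 bases with Hps3 on the opposite strand. No source used here states whether counting used strand, so reads of the overlap may be uncertain. Hps3 ranged over 5.70 to 14.5 CPM among hypothalamus IPs against 9.10 to 13.0 CPM among inputs, and did not pass the test there (−0.26, adjusted p = 0.598). Among midbrain IPs it ranged over 9.84 to 16.1 CPM against 13.8 to 19.3 CPM among inputs, and did not pass either (−0.43, adjusted p = 0.358). Its difference between the regions in IP against input was 0.17 (SE 0.48). The part of Hps3 reads in the Cp counts was not tested.

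**Figure D2:**
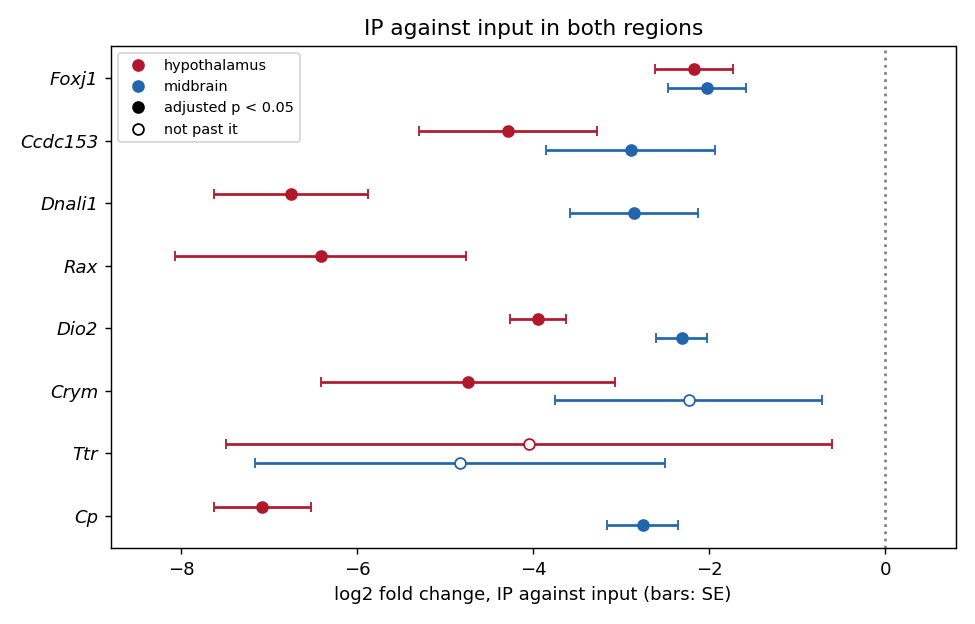
Log2 fold change of each gene, IP against input, in the hypothalamus (red) and midbrain (blue), with bars of 1 SE. Filled points passed an adjusted p of 0.05. Rax in the midbrain is left out because it had too few counts. Foxj1 lies at −2.17 and −2.03 in the 2 regions, and Cp lies at −7.08 in the hypothalamus and −2.76 in the midbrain.

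Residual shares expressed how much of the input level was left in each IP, as the mean IP level in percent of the mean input level. In the hypothalamus the median over the 8 genes was 4.40%, from 0.672% for Cp to 22.2% for Foxj1. It was 2.68% as the median of same-numbered shares, and 1.82% to 6.01% on leaving out single libraries. Dnali1 kept 0.880%, Rax 0.821%, Crym 3.71%, Ccdc153 5.09%, Ttr 5.73% and Dio2 6.45%. Without Rax, the middle value was that of Ccdc153. In the midbrain the median over the 7 genes with at least 1 CPM in the input, which leaves out Rax, was 14.8%. It was 17.5% over all 8 with Rax set at its upper limit. Ttr kept 3.52%, Ccdc153 13.3%, Dnali1 13.7%, Cp 14.8%, Dio2 20.1%, Crym 21.1% and Foxj1 24.5%. Rax, with no midbrain IP count, had an upper limit above its input level.

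Same-numbered libraries gave close shares for some genes and scattered ones for others. Foxj1 was at 27.2%, 23.2% and 16.9% in hypothalamus replicates 1 to 3, and at 22.4%, 29.1% and 18.5% in midbrain replicates 1 to 3. The ranges of the regions overlapped for Foxj1. Dio2 was at 4.19%, 6.26% and 8.20% in the hypothalamus and at 17.2%, 20.99% and 22.4% in the midbrain, with every hypothalamus share below every midbrain share. Cp was at 0.651%, 0.386% and 1.09% in the hypothalamus and at 9.83%, 11.7% and 27.4% in the midbrain, again without overlap. Ccdc153 was scattered in the midbrain, at 17.8%, 25.5% and 0.886%. Crym was at 442% in midbrain replicate 1 and 1.89% in replicate 3, with no input count in replicate 2. Ttr was at 3.54% (exact 95% interval 3.36% to 3.73%) in midbrain replicate 3, where the counts were highest.

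**Figure D3:**
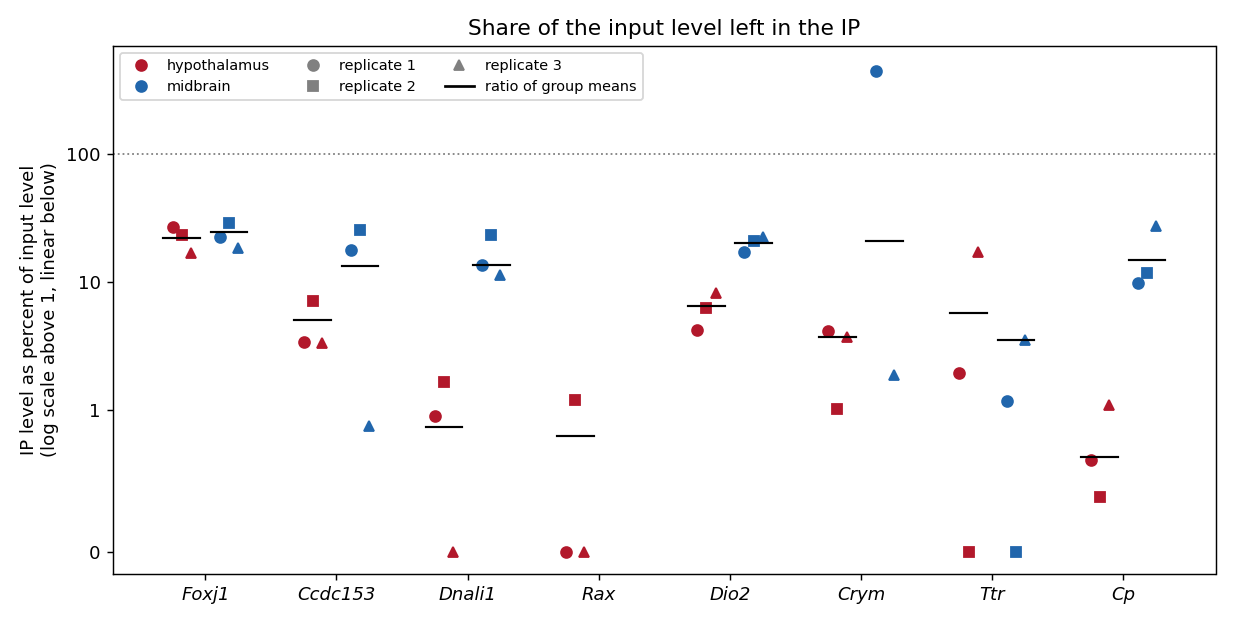
IP level in percent of the input level for each same-numbered pair of libraries with at least 10 input counts, on an axis that is logarithmic above 1 and linear below. Black lines are ratios of group means. Dio2, Dnali1 and Cp have all hypothalamus pairs below all midbrain pairs, while the Foxj1 pairs of the regions overlap and Crym in midbrain replicate 1 lies above 100%.

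The depletion of Cp differed between the regions. The hypothalamus log2 fold change minus that of the midbrain was −4.32 (SE 0.66, adjusted p = 0.0319), and 1 of the 8 genes was lower by this test, where 0.0165% of all genes tested were lower. The hypothalamus side of this value rests on 4 IP counts. It did not pass on leaving out any 1 of 10 of the 12 libraries (−4.02 to −4.53, adjusted p = 0.0504 to 0.125), nor without both midbrain replicate 3 libraries (−3.85, adjusted p = 0.139) or both hypothalamus replicate 2 libraries (−3.94, adjusted p = 0.314). Dio2 differed by −1.63 (SE 0.40) and did not pass (adjusted p = 0.248), but passed with a term for the replicate number (−1.65, adjusted p = 0.0373) or for each region and number (−1.71, adjusted p = 0.0241). Dnali1 differed by −3.90 (SE 1.06, adjusted p = 0.318). The other genes did not pass either, and the difference for Foxj1 was −0.14 (SE 0.60). Astrocyte, oligodendrocyte, microglia, endothelial and mural cell and meningeal fibroblast genes also had negative medians, from −0.92 (microglia) to −0.64 (meningeal fibroblast), with none called. Medians were 0.26 for choroid plexus and 0.45 for GABAergic neuron genes.

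Between the IPs, Cp and Dio2 were lower in the hypothalamus. Of the 8 genes 2 fell in the hypothalamus IP relative to the midbrain IP and none rose, where 2.21% of all genes tested fell. Cp was lower (log2 fold change −5.03, SE 0.54, adjusted p = 0.000387), at 0.0253 ± 0.0106 CPM over hypothalamus IPs and 0.908 ± 0.296 CPM over midbrain IPs (SD, n = 3 each). Dio2 was lower as well (log2 fold change −3.20, SE 0.31, adjusted p = 0.000187). Both passed under every alternative run for the IPs. Ccdc153 averaged 0.454 ± 0.379 CPM over hypothalamus IPs and 0.455 ± 0.591 CPM over midbrain IPs (SD, n = 3 each), which overlapped. Ttr had a log2 fold change of −7.62 (adjusted p = 0.234) that came to 0.28 without both midbrain replicate 3 libraries. Genes of other non-neuronal cells leaned the same way. Of 10 oligodendrocyte genes 5 fell, of 10 endothelial and mural cell genes 2, and of 10 astrocyte and 8 microglia genes 1 each. No meningeal fibroblast gene passed. The medians of these lists ran from −1.75 (meningeal fibroblast) to −0.90 (endothelial and mural cell). In the other direction, 7 of 53 motile cilia and 4 of 10 GABAergic neuron genes rose, where 2.05% of all genes tested rose.

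Between the inputs, Dio2 alone of the 8 genes passed the test, and it was lower in the hypothalamus, where 0.601% of all genes tested fell. It had 16.4, 19.95 and 23.5 CPM in hypothalamus inputs, against 62.8, 53.6 and 60.6 CPM in midbrain inputs. The groups did not overlap (log2 fold change −1.56, SE 0.28, adjusted p = 0.0159). Without any 1 of hypothalamus inputs 1 and 2 and midbrain inputs 1 to 3 it did not pass (adjusted p = 0.0515 to 0.0863), nor without both midbrain replicate 3 libraries (0.0758) or both hypothalamus replicate 2 libraries (0.123). Of 10 astrocyte genes edgeR called none between the inputs, with 1 at an unadjusted p under 0.05. DESeq2 called 1 of these astrocyte genes lower, where 1.837% of all genes were. Their median log2 fold change was −0.17, but 0.03 without hypothalamus input 2 and 0.17 without midbrain input 1. The part of astrocytes in the Dio2 level was not tested. Rax was at 0.745 ± 0.689 CPM in the hypothalamus input and 0.0463 ± 0.0631 CPM in the midbrain input (SD, n = 3 each), and its groups did not overlap, but it did not pass (log2 fold change 3.99, adjusted p = 0.269). Dnali1 had 5.07 ± 1.08 CPM in the hypothalamus input and 1.31 ± 0.772 CPM in the midbrain input (SD, n = 3 each), without overlap, and did not pass (1.95, adjusted p = 0.237). Foxj1 had a log2 fold change of −0.12 between the inputs (SE 0.42) and overlapping groups.

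Per kilobase of exon, the order of the genes changed with the region. In the hypothalamus input Foxj1 had 5.20 ± 1.43 CPM per kb, Ccdc153 4.37 ± 1.91, Dio2 3.43 ± 0.618, Crym 2.55 ± 1.94 and Dnali1 2.38 ± 0.506 CPM per kb (SD, n = 3 each). Each of these differed from its neighbour in the order by less than the larger SD of the pair. Ttr followed with 0.741, Cp with 0.394 and Rax with 0.128 CPM per kb. In the midbrain input Ttr came first at 252 CPM per kb, a mean set by replicate 3, since the lowest library held 0.664 CPM per kb. Dio2 followed with 10.1 ± 0.828 and Foxj1 with 5.64 ± 2.19 CPM per kb (SD, n = 3 each), and Rax was again last at 0.00792.

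The Ttr peak of midbrain input replicate 3 came with other choroid plexus transcripts. Of 24 choroid plexus genes with at least 0.5 CPM in a midbrain input, 13 were more than double both other inputs there, and none were in replicates 1 and 2. The sum over the choroid plexus list, Ttr and Cp included, was 91.5 to 101 CPM in the midbrain IP and 272 to 1458 CPM in the midbrain input. Without Ttr and Cp it was 68.1 to 98.4 CPM in the midbrain IP and 265 to 565 CPM in the midbrain input. Kcne2, a potassium channel subunit of this epithelium, was 26.5 times the highest other midbrain input. The folate receptor gene Folr1 was 6.84 times as high and the claudin gene Cldn2 10.98 times. Cp did not share the peak, at 4.56 CPM against 7.78 CPM in the highest other midbrain input. Neither did Otx2, Slc13a4 and Igfbp2, at 0.741, 0.723 and 0.885 times the highest other midbrain input, and Enpp2 was at 1.08 times. Of 48 motile cilia genes 16 were more than double both other inputs in the same library, as were 5 of 10 GABAergic neuron genes. None of 10 astrocyte, 10 oligodendrocyte and 8 microglia genes were. The share of all genes that met this rule was not computed. Crym was at 6.72 CPM in that input and at most 0.192 CPM in the others. The part of choroid plexus tissue in these values was not tested.

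**Figure D4:**
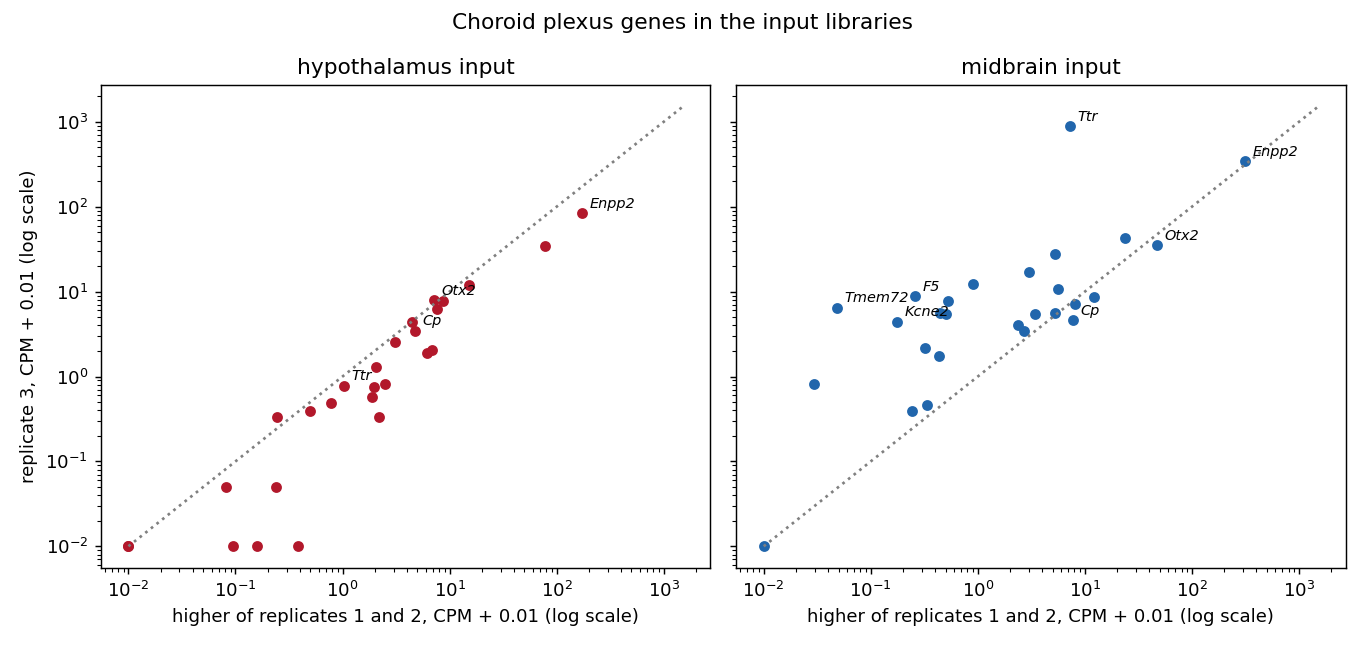
Choroid plexus genes in the input libraries, replicate 3 against the higher of replicates 1 and 2, as CPM + 0.01 on log axes, for the hypothalamus (left) and midbrain (right). The dotted line marks equality. In the midbrain Ttr reaches 888 CPM in replicate 3 and 13 genes are more than double both other inputs, while Cp lies below the line.

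The wider motile cilia list holds Foxj1, Ccdc153 and Dnali1 among its genes. Of 53 tested, 28 fell and 1 rose in the hypothalamus IP, with a median of −2.17, and 24 fell in the midbrain IP and 1 rose, with a median of −1.56. Over all genes 19.6% fell and 14.2% rose in the hypothalamus IP, and 19.9% fell and 14% rose in the midbrain IP. In the hypothalamus 18 fell without both replicate 2 libraries, where 11.39% of all genes then fell, and in the midbrain 13 fell without both replicate 3 libraries, where 12.16% of all genes then fell. Sntn, a protein of ciliary tips, had a log2 fold change of −6.00 (adjusted p = 0.000706) in the hypothalamus, and Spag16, of the ciliary central pair, −5.30 (adjusted p = 0.000321) in the midbrain. Dnaaf1, a dynein assembly factor, had 1 count over the hypothalamus IPs, against 166 over the inputs. Tppp3, which encodes a tubulin-binding protein, was the gene that rose in the hypothalamus IP, by 0.52 (adjusted p = 0.0414). The midbrain exception, named after its values were seen, was Ccno, a cyclin-family gene of multiciliated cell formation (2.23, adjusted p = 0.0425). Between the inputs edgeR called none of the 53, with 22 at an unadjusted p under 0.05, which 11.2% of all genes reached. With a term for the replicate number 9 were higher in the hypothalamus, where 2.874% of all genes were. DESeq2 called 12 higher, where 2.367% of all genes were.

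Of 20 tanycyte genes tested, 9 fell and 2 rose in the hypothalamus IP, and 6 fell and 2 rose in the midbrain IP, with medians of −1.99 and −1.16. The shares over all genes were 19.6% lower and 14.2% higher in the hypothalamus IP, and 19.9% lower and 14% higher in the midbrain IP, so the share that rose was no larger than over all genes. Without both hypothalamus replicate 2 libraries 6 fell and 1 rose in the hypothalamus, where 11.39% of all genes then fell and 7.227% rose. Without both midbrain replicate 3 libraries 6 fell and 1 rose in the midbrain, where 12.16% of all genes then fell and 7.88% rose. Slco1c1, a thyroxine transporter, fell by 4.81 in the hypothalamus IP (adjusted p = 0.000197) and fell by 4.62 in the midbrain IP (adjusted p = 0.00025). Tgfb2, a growth factor, was higher by 1.52 in the hypothalamus IP (adjusted p = 0.0158). Lhx2, a LIM homeodomain factor, was higher by 2.13 in the midbrain IP (adjusted p = 0.00455) and, in a value chosen after it was seen, by 1.68 in the hypothalamus IP (adjusted p = 0.0149), where its groups overlapped. Fgf10, a growth factor of tanycytes, was higher by 1.11 in the midbrain IP (adjusted p = 0.0291). Between the inputs Gpr50, an orphan receptor of tanycytes, was higher in the hypothalamus by 3.64 (adjusted p = 0.0482).

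Of 23 choroid plexus genes tested, 10 fell and 1 rose in the hypothalamus IP, and 13 fell and none rose in the midbrain IP, where 19.6% and 19.9% of all genes fell. The medians were −2.98 in the hypothalamus, or −1.83 with the 5 genes at 0 in the IP set at their bound, and −2.94 in the midbrain. Without both midbrain replicate 3 libraries 7 fell and 1 rose in the midbrain, where 12.16% of all genes then fell. In the hypothalamus 8 of 25 choroid plexus genes fell and none rose without both replicate 2 libraries, where 11.39% of all genes then fell. Calml4 had no count over the hypothalamus IPs, against 248 over the inputs, at least 27.95-fold lower against 3 counts per library. Sostdc1, a secreted antagonist of BMP and Wnt signals, was higher by 1.29 in the hypothalamus IP (adjusted p = 0.026). Otx2, a homeodomain factor of choroid plexus and also of midbrain neurons, was lower in the hypothalamus input than in the midbrain input (−2.64, adjusted p = 0.0063).

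Dio2, Crym and Ttr handle thyroid hormone, and the list of that pathway includes them. Of 22 genes tested, 6 fell and 2 rose in the hypothalamus IP with a median of −0.33, and 2 fell and 4 rose in the midbrain IP with a median of 0.06. These counts lie near the shares over all genes, of 19.6% lower and 14.2% higher in the hypothalamus IP and 19.9% lower and 14% higher in the midbrain IP. With a term for each region and number 10 fell and 4 rose in the hypothalamus, where 22.1% and 18.39% of all genes did, and 4 fell and 6 rose in the midbrain, where 21.54% and 19.33% did. Without both hypothalamus replicate 2 libraries 2 fell and 2 rose in the hypothalamus, where 11.39% of all genes then fell and 7.227% rose. Without both midbrain replicate 3 libraries 3 fell and 2 rose in the midbrain, where 12.16% of all genes then fell and 7.88% rose. Thra, a nuclear thyroid hormone receptor, was higher in the hypothalamus IP by 0.92 (adjusted p = 0.000764) and in the midbrain IP by 1.12 (adjusted p = 0.00022). Rxrb, its partner receptor, was higher by 1.03 in the hypothalamus IP (adjusted p = 0.00121) and by 0.58 in the midbrain IP (adjusted p = 0.026). The other genes that rose in the midbrain IP were the retinoid receptor Rxrg (1.69, adjusted p = 0.00916) and the corepressor Ncor1 (0.42, adjusted p = 0.0401), the second named after its value was seen. The genes that fell there were Dio2 and the transporter Slco1c1. Of 19 iron and copper genes, 8 fell and 1 rose in the hypothalamus IP, while 10 fell and none rose in the midbrain IP, with medians of −1.38 and −1.09. Atox1, a copper chaperone, was the gene that rose (1.02, adjusted p = 0.0212). Without both hypothalamus replicate 2 libraries 5 fell in the hypothalamus, where 11.39% of all genes then fell. Without both midbrain replicate 3 libraries 6 fell in the midbrain, where 12.16% of all genes then fell. Fth1, the ferritin heavy chain, fell by 1.75 in the hypothalamus IP (adjusted p = 0.00034), and Heph, a ferroxidase related to Cp, fell by 4.51 in the midbrain IP (adjusted p = 0.0369).

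Markers of other non-neuronal cells fell beside the ventricle-lining genes. All 10 astrocyte and all 10 oligodendrocyte genes fell in both IPs, and all 8 microglia genes did. Endothelial and mural genes fell in 7 of 10 cases in each region, and meningeal fibroblast genes in 9 of 10 in the hypothalamus and 10 of 10 in the midbrain, where 19.6% and 19.9% of all genes fell. Without both hypothalamus replicate 2 libraries 7 of 8 microglia, 6 of 10 endothelial and mural cell and 6 of 10 meningeal fibroblast genes fell in the hypothalamus IP. Without both midbrain replicate 3 libraries 6 of 8 microglia, 4 of 10 endothelial and mural cell and 6 of 10 meningeal fibroblast genes fell in the midbrain IP. Of all genes, 11.39% fell in the hypothalamus IP under the first setting and 12.16% in the midbrain IP under the second. All astrocyte and oligodendrocyte genes fell under both of these settings. The astrocyte sum was 111 to 264 CPM among hypothalamus IPs, against 814 to 1861 CPM among their inputs, and 178 to 280 CPM among midbrain IPs, against 1052 to 1984 CPM among theirs, with no gene at 0 in an IP group. The median astrocyte gene kept 3.86% of its input level in the hypothalamus and 7.496% in the midbrain, and the median oligodendrocyte gene 3.37% and 6.30%. GABAergic neuron genes fell in 9 of 10 cases in each region, and in 7 of 10 without the same replicate pairs. Of 6 pituitary genes tested 3 fell in the hypothalamus IP, namely Cga, Tshb and Pomc, chosen for naming after their values were seen. Of the 5 pituitary genes tested without both hypothalamus replicate 2 libraries 3 fell, and without both midbrain replicate 3 libraries 1 of 6 did. None passed for the midbrain, where edgeR also gave none at an unadjusted p under 0.05 and a term for each region and number gave 2. Of 10 neuronal genes 6 rose and 1 fell in the hypothalamus IP, and 3 rose and 1 fell in the midbrain IP, with Snhg11, a long noncoding RNA of neurons, as the gene that fell in both, or 9 and 7 rose with a term for each region and number. Over all genes 14.2% and 14% rose, or 18.39% and 19.33% with that term. Without both hypothalamus replicate 2 libraries 4 neuron genes rose in the hypothalamus IP, where 7.227% of all genes then rose. Without both midbrain replicate 3 libraries 2 rose in the midbrain IP, where 7.88% of all genes then rose.

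Over the 12 libraries, the genes whose log2 levels followed each marker most closely are given as a description, since the points share region, fraction and depth. For Dio2 these were Ptn (Pearson's r 0.979), Peli2 and Pex5l, and for Cp they were Cav1 (0.9804), Fa2h and Rsbn1l. For Foxj1 they were Necap2 (0.978), Nupr1 and Myl9, for Ccdc153 Lca5l (0.969), Pcnt and Cald1, and for Dnali1 Spata1 (0.963), Casq2 and Ppp2r1b. Rax, Crym and Ttr had lower best values, of 0.919 with Mcm3ap, 0.902 with Egr2 and 0.852 with Msrb3. Over the 6 inputs, Ttr was followed by Itgae (0.994), Slc4a5 (0.992) and Dyrk2 (0.9897), of which Slc4a5, a bicarbonate transporter, is on the choroid plexus list. Midbrain input 3 held 888 CPM of Ttr and 7.73 CPM of Slc4a5, against at most 7.20 and 0.519 CPM in the other inputs. The Slc4a5 value thus rests largely on 1 library. The closest input genes of Ccdc153 (Klhl22, 0.9995), Dio2 (Srgap2, 0.9991), Rax (Clrn1, 0.997) and Dnali1 (Cul2, 0.995) are on no list used here. The same holds for those of Foxj1 (Tmem194b, 0.9945), Cp (Fnta, 0.987) and Crym (Kcnmb1, 0.985).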

How the data were processed

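The authors deposited a table of raw counts by gene symbol for each library. The submitters' processing notes name STAR 2.0.0e, HTSeq and mm10. The 5 HTSeq summary rows were left out, and among them the row without a feature held 7.59% to 17.4% of all counts tallied. The main test was edgeR 4.0.16 (R 4.3.3): filterByExpr, TMM, 4 group means over all 12 libraries, a robust quasi-likelihood fit and Benjamini-Hochberg adjustment over 18128 genes. DESeq2 1.42.0, limma-voom 3.58.1, other scalings and filters, left-out libraries and replicate terms were alternatives; leaving out both hypothalamus replicate 2 or both midbrain replicate 3 libraries was chosen after seeing the data. Fits were tested on simulated data. Same-numbered libraries deviated together in all 18 pairs (correlations of deviations from group means 0.141 to 0.570, against −0.378 to 0.125 for different numbers). Centring each group on its own mean itself lowers the correlations of different numbers. Within 1 region, IP and input of a number reached 0.141 to 0.502, and what same-numbered libraries share was not tested. The numbers paired libraries for the shares and the replicate terms, while the main test had no such term. Gene positions and exon lengths came from GENCODE mouse release 21.

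All 8 genes were named. From 13 other lists, at most 3 called genes per direction were named, those with the largest fold changes whose higher group averaged 1 CPM or more and whose groups did not overlap, and a few more are marked as chosen after their values were seen. The genes and lists were chosen with earlier results of these data known. By the names of the tables, IPs and inputs had different sequencing indexes and the regions different lanes within a replicate number, so these cannot be told apart from fraction and region.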

Additional observations from a re-analysis of the deposited data

Results flagged for a closer look

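The difference between the regions in IP against input for Cp, the ceruloplasmin gene, was flagged because it passed its own test (hypothalamus minus midbrain −4.32 on the log2 scale, SE 0.66, edgeR adjusted p = 0.0319). The hypothalamus IPs held 1, 1 and 2 Cp counts and the midbrain IPs 36, 37 and 59. The call was lost on leaving out any 1 of 10 of the 12 libraries (adjusted p = 0.0504 to 0.125), without both midbrain replicate 3 libraries (0.139), without both hypothalamus replicate 2 libraries (0.314) and with limma-voom (−4.01, adjusted p = 0.238). It held with DESeq2 and with either replicate block.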

How the results depend on the processing

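Of 688 values under alternative settings, 612 kept their direction and side of the threshold, 38 lost the call, 12 gained it and 26 changed sign. The count of genes that fell in each IP stayed within 1.5 times its value under every setting run. In the regional difference, where edgeR called 1 gene, DESeq2 called 3, limma-voom 0 and either replicate block 2, and 0 or 1 were called on leaving out single libraries and 0 without both midbrain replicate 3 or both hypothalamus replicate 2 libraries. Between inputs, DESeq2 and limma-voom called 2 in place of 1, leaving out single libraries gave 0 or 1, and leaving out either replicate pair gave 0. Over all genes, the regional difference called 14, against 213 by DESeq2, 8 by limma-voom, 105 and 98 with the replicate blocks and 8 to 33 on leaving out single libraries. The inputs differed in 291 genes, against 762 by DESeq2 and 1097 with the replicate block, and the IPs in 773, against 1800 and 2024, with 196 from the 6 IP libraries alone. The median hypothalamus share was 2.68% as the median of same-numbered shares and 1.82% to 6.01% on leaving out single libraries, against 4.40%. Crym in the midbrain changed sign with limma-voom (0.78), with the replicate block per region and number (0.68), without both replicate 3 libraries (2.73) and on leaving out single libraries (−2.89 to 2.29). Leaving out single libraries gave −12.76 to 1.40 for Ttr in the midbrain, and for the regional difference −5.45 to 8.71 for Ttr, −0.50 to 0.50 for Foxj1 and −2.30 to 0.56 for Ccdc153. The Ttr difference was −3.27 with the replicate block by number. Between IPs, Ccdc153 was 0.021 with library size alone, 0.66 with limma-voom, 0.12 with the replicate block by number and −0.93 to 1.94 on leaving out single libraries. Those gave −0.54 to 0.38 for Foxj1, −1.28 to 0.067 for Crym and −9.76 to 0.31 for Ttr, which was 0.28 without both midbrain replicate 3 libraries. Between inputs, Foxj1 was 0.020 with library size alone and −0.35 to 0.24 on leaving out single libraries. The cause of these changes was not tested. Apart from Ttr in both IP comparisons and the Dio2 difference, the replicate block changed no call of the 8 genes. DESeq2 gave no adjusted p for Ttr. Rax had no count in either IP group without hypothalamus IP replicate 2, so that setting has no value. Levels below 3 counts in a library, as for Cp, Rax and Dnali1 in the hypothalamus IP, limit any ratio built on them.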
